A study of Drosophila melanogaster with 14 samples.

Results

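The 38 genes described here drive the cell cycle and DNA replication. They were taken by name from known roles, and comprise 17 genes of DNA replication, 14 of mitosis and 7 that control entry into S phase (G1/S control). All 38 were found in the Release 6 gene table, among 17802 genes with at least 1 GATC fragment.

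Cyclins and their kinases order the cell cycle. The origin recognition complex (ORC) marks replication origins, the MCM2-7 helicase is loaded there with the help of dup (the fly Cdt1), and geminin inhibits this loading. E2f1 with its partner Dp activates genes of S phase, Rbf restrains it, and CycE drives entry into S phase. Mitosis is started by Cdk1 with mitotic cyclins after the phosphatase stg (string, the fly Cdc25) removes an inhibitory phosphate. In the adult midgut, intestinal stem cells (ISCs) are the main dividing cells, whereas enterocytes (ECs) become polyploid by endoreplication, in which S phase recurs without mitosis. Both cell types therefore have use for replication genes at some stage, whereas mitotic genes serve dividing cells.

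Targeted DamID of dissected adult midguts measured where Pol II sits on the genome. The Dam-Pol II fusion and its Dam control were driven by esg, which covers ISCs together with their enteroblast (EB) progeny (2 samples each), or by myo in ECs (2 samples each). Dam-Sox21a, a fusion with the ISC/EB transcription factor Sox21a, and its own Dam control were expressed in ISC/EBs (3 samples each). All groups thus express Dam. Age beyond adult and strain were not given in the sources read. Each fusion was available as 1 averaged track of log2 ratios over Dam. Replicate spread and p-values therefore cannot be given, and statements on size refer to these tracks alone. Values in ISC/EBs average over ISCs and EBs, so that few strongly occupied cells and many weakly occupied cells cannot be told apart.

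Each track held 383654 fragments with a median length of 197 bp. Fragment values spread more in ISC/EBs (SD 0.86) than in ECs (SD 0.65). Of 4 ISC/EB markers, all 4 had higher values in ISC/EBs, from 1.45 (Dl, called Delta in the gene table) to 3.63 (esg), with EC values from -0.26 to -0.10. Of 4 EC markers, the trypsin genes kappaTry and betaTry had -0.01 and -0.21 in ISC/EBs, against 3.04 and 2.16 in ECs. The EC marker Myo31DF, which encodes the myosin of the driver's name, was near in value at 1.47 in ISC/EBs and 1.30 in ECs, and nub had 0.24 and 0.63. Of 4 enteroendocrine and 4 visceral muscle markers, none reached 1 in either track. The highest were how (0.83 in ISC/EBs, -0.05 in ECs) and Mef2 (0.59 and 0.22), and the muscle myosin gene Mhc had -0.18 and -0.0034. Their part in the results was not tested.

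Pol II at the cell cycle genes was higher in ISC/EBs almost throughout. Of 38 genes, 37 had the higher value in ISC/EBs, compared with 65.3% of all genes, and 33 of 38 compared with 48.8% after the 2 tracks were quantile normalized. The median difference (ISC/EB minus EC) was 0.73 on the log2 scale, against 0.15 over all genes. Quantile normalization lowered these medians to 0.31 and -0.01. The sole exception on the deposited scale was asp, the spindle pole gene abnormal spindle, which lay below Dam in both tracks at -0.15 in ISC/EBs and -0.13 in ECs. By fragments, 643 of 789 (81.5%) were higher in ISC/EBs, compared with 47.2% of all fragments, and fragments of a gene are neighbors and not replicates. All fragments include those outside genes, and 14.1% of them were at 0 in ISC/EBs and 18.1% in ECs, so the 2 shares are not like for like.

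A mean log2 ratio of at least 1, that is, at least 2 times the Dam signal, was taken as occupied. By this measure 19 of the 38 genes were occupied in ISC/EBs (29.4% of all genes) and 7 in ECs (18.9% of all genes). All 7 genes occupied in ECs were also occupied in ISC/EBs. They were RnrS, Cdk1, aurB, fzy, E2f2, Dp and Rbf. The share in ECs (18.4%) lay near that of all genes. A difference of at least 1 toward ISC/EBs was seen in 10 of 38 genes (26.3%), compared with 9.89% of all genes. No member had a difference of at least 1 toward ECs, where 2.66% of all genes did. The 10 genes were Orc2, Orc6, CycA, CycB, stg, polo, aurB, Incenp, pav and tum. Of these, tum (1.01) and polo (1.02) lay at the threshold, and Orc5 (0.98) lay just below it. Under 11 other ways of computing gene values, tum reached 1 in 5 and polo in 3. After quantile normalization, which evens out the wider spread of the ISC/EB track, only Orc2 and CycB kept a difference of at least 1 (3.61% of all genes).

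**Figure D1:**
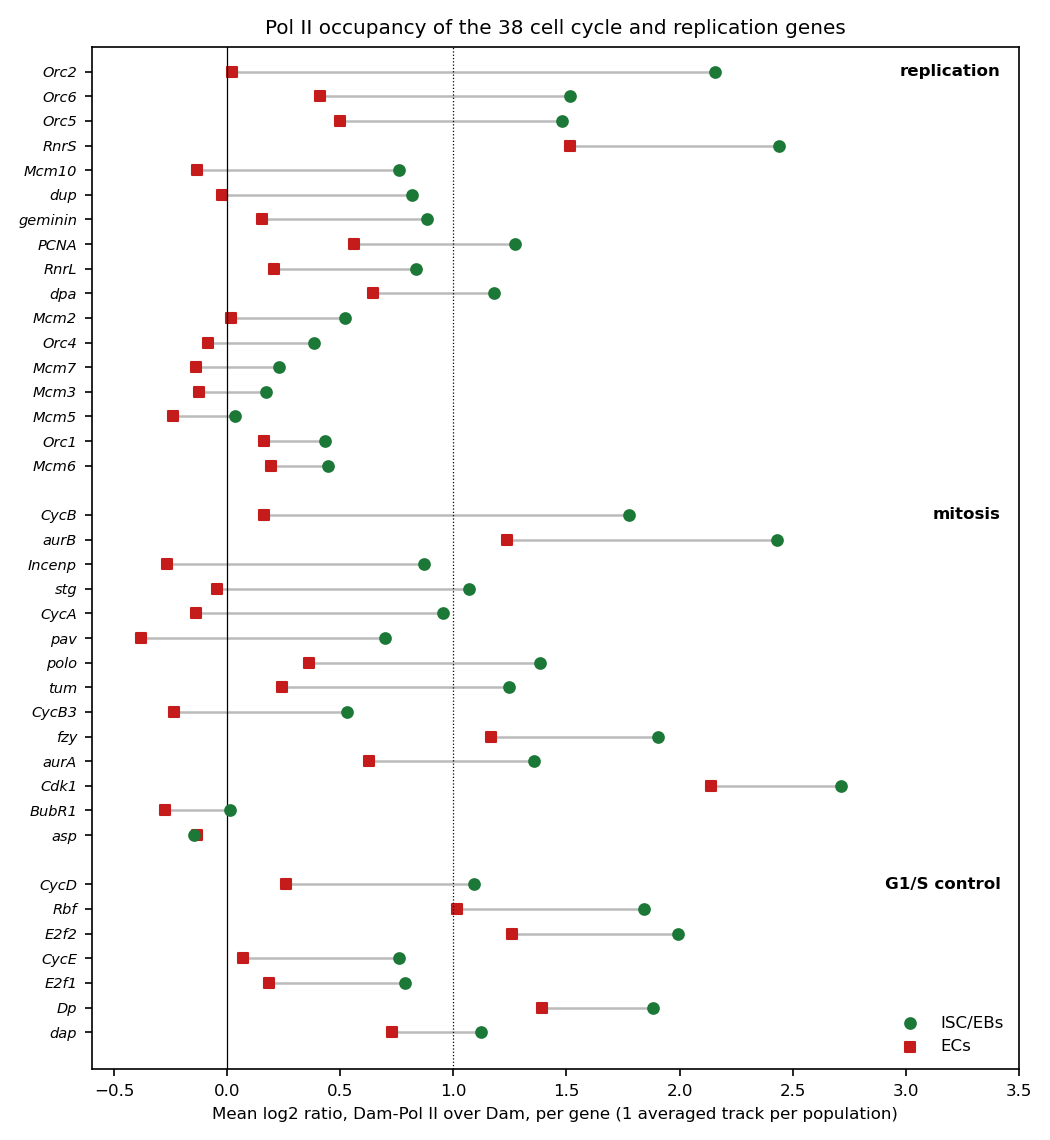
Mean log2 ratio of Dam-Pol II over Dam for each of the 38 genes in ISC/EBs (green circles) and ECs (red squares), 1 averaged track per population, sorted by difference within replication, mitosis and G1/S control. The ISC/EB value lies to the right of the EC value in 37 genes, asp being the exception, and the dotted line marks the threshold of 1.

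Among replication genes, ORC subunits differed widely from each other. Orc2, on chromosome 3R from 13964885 to 13967075 (Release 6), had 2.15 in ISC/EBs and 0.02 in ECs, a ratio of 4.38 and the largest difference of all members (2.13). Of its 14 fragments, 12 were at 1 or higher in ISC/EBs and 1 in ECs. Values ran from -0.01 to 3.49 in ISC/EBs (median 2.18), against -0.45 to 1.08 in ECs (median -0.02). The difference was between 1.74 and 2.26 under the 11 other ways of computing gene values.

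Values at Orc6 were 1.52 in ISC/EBs against 0.41 in ECs, and at Orc5 1.48 against 0.50. Both genes are short, with 5 and 9 fragments, and share fragments with overlapping genes. Their nearest separate neighbors, Prosalpha7 at 151 bp (1.62 and 0.85) and Arpc1 at 96 bp (2.22 and 1.14), carried more Pol II than they did. Orc4 had 0.38 and -0.09. Orc1, the large subunit that is cell cycle regulated in flies, had 0.43 and 0.16, with a median fragment of 0.16 in ISC/EBs. Subunits of this complex thus spanned differences from 0.27 to 2.13, and lat, which encodes the Orc3 subunit, had 1.04.

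Of the 6 genes of the MCM2-7 helicase, only dpa was occupied in ISC/EBs and none in ECs. Their 6 values ran from 0.04 (Mcm5) to 1.18 (dpa, which encodes Mcm4) in ISC/EBs, against -0.24 (Mcm5) to 0.64 (dpa) in ECs. The ISC/EB value of dpa was 0.55 in fragments that touch no other gene and 0.40 with medians over fragments. With the gene extended by 1000 bp it was 1.79. All 6 differences were small and toward ISC/EBs, between 0.26 (Mcm6) and 0.54 (dpa). After quantile normalization the difference of Mcm6 was -0.02, and that of Mcm7 was -0.04 in the fragments that touch no other gene. These are few, as 15 of the 17 fragments of Mcm7 touch an antisense RNA gene. Mcm2 had 0.52 and 0.02, Mcm7 0.23 and -0.14, and Mcm3 0.17 and -0.13. In these genes most fragments lay near 0 and a few were high: in Mcm2, on chromosome 3R from 8264970 to 8267924, the median fragment was 0.15 and the highest 3.45 in ISC/EBs, against 0.00 and 2.03 in ECs.

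The other replication factors had intermediate differences. PCNA, the sliding clamp, had 1.27 in ISC/EBs and 0.56 in ECs, with all 10 fragments higher in ISC/EBs. Mcm10 had 0.76 and -0.13, dup 0.82 and -0.02, and geminin 0.88 and 0.15, the last with 4 fragments. These 4 genes had differences between 0.71 and 0.89. Ribonucleotide reductase makes deoxynucleotides, and its 2 subunit genes differed in level. RnrS, the small subunit, was the most occupied replication gene at 2.44 in ISC/EBs and 1.52 in ECs, whereas RnrL, the large subunit, had 0.83 and 0.21.

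Among mitosis genes, the cyclin gene CycB had the largest difference. CycB lies on chromosome 2R from 22803521 to 22806948 and had 1.77 in ISC/EBs and 0.16 in ECs, a ratio of 3.06. All 15 fragments were higher in ISC/EBs. They ran from -0.05 to 3.11 in ISC/EBs (median 2.01), against -0.55 to 2.08 in ECs (median 0.22). Its difference was between 1.13 and 1.79 under the 11 other ways of computing gene values. CycA had 0.95 in ISC/EBs and -0.14 in ECs, with a median fragment of 0.11 in ISC/EBs and a highest fragment of 3.48, and 15 of its 27 fragments touch another gene. CycB3 had 0.53 and -0.23, with all 17 fragments higher in ISC/EBs.

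Cdk1, the mitotic kinase, was the most occupied member in both populations. It lies on chromosome 2L from 10384739 to 10386262 and had 2.71 in ISC/EBs and 2.14 in ECs. Its 8 fragments were at 1 or higher in both tracks, at 1.60 to 3.56 in ISC/EBs and 1.77 to 2.32 in ECs, and 5 of 8 were higher in ISC/EBs. The difference of 0.57 turned to -0.10 after quantile normalization and to -0.09 after scaling both tracks to the same SD. The neighboring genes are close, with CG5096 at 16 bp (2.22 and 1.52) and mRpS7 at 400 bp (3.002 and 1.69). GATC fragments can span such short gaps, and the neighbors' part in the Cdk1 value was not tested. The activator of Cdk1, stg, had 1.07 in ISC/EBs and -0.04 in ECs. No fragment of stg reached 1 in ECs, whereas 5 of 20 did in ISC/EBs, up to 3.43.

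The kinase genes polo, aurA and aurB were all occupied in ISC/EBs, and of these 3 only aurB was occupied in ECs. aurB, the kinase of the chromosomal passenger complex, had 2.43 in ISC/EBs and 1.24 in ECs, with all 9 fragments above 1 in ISC/EBs and 5 in ECs. Its scaffold Incenp had 0.87 and -0.27. polo had 1.38 and 0.36, and aurA, the centrosomal kinase, 1.36 and 0.63. The central spindle genes pav (a kinesin) and tum (a RhoGAP), whose products form a complex needed for cytokinesis, had similar differences. pav had 0.70 and -0.38, and tum had 1.25 and 0.24, with all 30 fragments of the pair higher in ISC/EBs. fzy, the Cdc20 activator of the anaphase-promoting complex, had 1.90 and 1.16. BubR1, of the spindle checkpoint, lay near the level of Dam at 0.01 and -0.27, with a difference of -0.06 in its inner 60%. In turn asp had no fragment at 1 or higher in either population, with a highest fragment of 0.83 in ISC/EBs and 0.01 in ECs.

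All 7 genes of G1/S control had mean signal above Dam in both populations, and none had a difference of at least 1. With medians over fragments and with the inner 60% of the gene, CycD had such a difference (1.10 and 1.16). CycE in ECs fell below Dam in fragments that touch no other gene (-0.12), in its inner 60% (-0.13) and with medians over fragments (-0.05). E2f1 in ECs did so with medians over fragments (-0.04). Both stayed above Dam in the other settings. E2f2, a repressive E2F, had 1.99 in ISC/EBs and 1.26 in ECs. Dp had 1.88 and 1.39, and Rbf had 1.84 and 1.01. These 3 were the only members of the group occupied in ECs. The activator E2f1 spans 40568 bp and had 0.79 and 0.19, with 29 of 118 fragments at 1 or higher in ISC/EBs and 11 in ECs. CycE spans 20570 bp and had 0.76 and 0.07, with 16 of 80 fragments at 1 or higher in ISC/EBs and 3 in ECs. CycD had 1.09 and 0.26. The CycE/Cdk2 inhibitor gene dap had the smallest difference of the group, 0.39, at 1.12 in ISC/EBs and 0.73 in ECs. After quantile normalization the difference of Dp was -0.14 and that of dap -0.06, and with medians over fragments that of dap was -0.21.

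Differences of replication and mitosis genes were compared directly. The median difference was 0.63 for 17 replication genes, 1.01 for 14 mitosis genes and 0.69 for 7 G1/S control genes, and the ranges overlapped (0.26 to 2.13, -0.01 to 1.61 and 0.39 to 0.83). A difference of at least 1 was seen in 2 of 17 replication genes (11.8%) and 8 of 14 mitosis genes (57.1%). The share of all genes was 9.89%, near that of the replication genes. EC values were below Dam for 8230 of all 17802 genes. Among members they were so for 6 of 17 replication genes, 7 of 14 mitosis genes and none of the G1/S control genes. Among the last, CycE was near Dam in ECs (0.07) and fell below it in some settings. Under all 11 other ways of computing gene values the median of the mitosis genes was above that of the replication genes. Of these ways, centring the tracks, limiting fragments to 2000 bp and requiring 5 fragments changed both medians little or not at all. Mitosis genes stayed above by the least with medians over fragments (0.30 for replication and 0.37 for mitosis genes). The count of genes at 1 or higher kept this order in some settings. It was 2 replication and 4 mitosis genes in unweighted means (8.4% of all genes) and 2 and 6 in fragments wholly inside the gene (9.03%). In fragments that touch no other gene it was 1 and 6 (8.95%), and in tracks scaled by SD 1 and 4 (5.08%). In other settings the order was not kept. With medians over fragments, 4 replication and 2 mitosis genes reached 1 (9.08% of all genes). With the inner 60% of each gene, chosen after seeing the data, 2 and 2 did (10.1%). With genes extended by 1000 bp the counts were 4 and 4 (8.78%), and after quantile normalization 1 and 1 (3.61%). No test of this difference was run.

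Among other genes of these processes the median was not higher for mitosis than for replication. Of 25 other replication genes, 24 had higher values in ISC/EBs and 2 a difference of at least 1, with a median of 0.56. All 38 other mitosis genes had higher values in ISC/EBs, but 3 had a difference of at least 1, with a median of 0.52. Of 26 other control genes, 25 were higher in ISC/EBs and 4 by at least 1, with a median of 0.72. The shares with a difference of at least 1 were 8.0%, 7.89% and 15.4% for these 3 lists, compared with 9.89% of all genes. The largest differences among the other mitosis genes were those of pim, the fly securin (1.68 in ISC/EBs and -0.12 in ECs), and borr, which encodes the passenger protein borealin (1.83 and 0.63). The smallest in that list were vtd, a cohesin subunit gene (-0.12 and -0.15), and the kinesin gene Klp61F (-0.06 and -0.10). Among control genes, Cks30A, a Cdk-binding subunit gene (1.48 and 0.00), and twe, a meiotic paralog of stg (1.34 and 0.03), had the largest differences. At the other end, values at Cks85A were 0.94 in ISC/EBs against 0.96 in ECs, and at p53 0.64 against 0.62. GINS subunit genes of the replication fork lay at opposite ends of their list, Psf2 at 2.50 in ISC/EBs and 1.35 in ECs, and Psf3 at 1.63 in ISC/EBs and 2.07 in ECs. The GINS subunit gene Psf1 had 0.28 and 0.11.

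**Figure D2:**
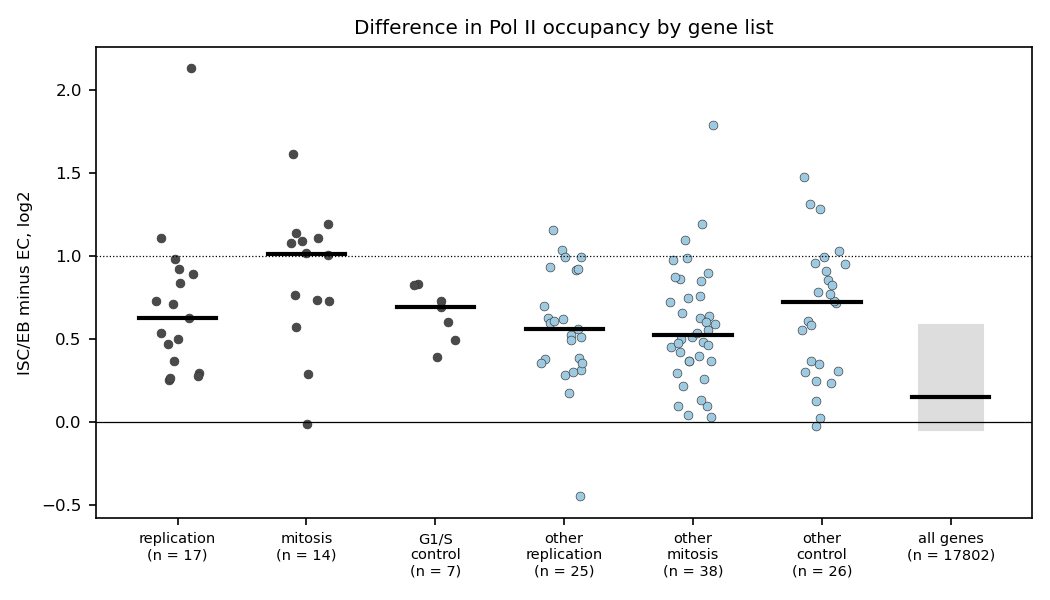
Difference in mean Pol II occupancy, ISC/EB minus EC on the log2 scale, for every gene of the 3 member lists (dark points), of 3 further lists of the same processes (blue points), and for all 17802 genes (gray box, quartiles). Black bars are medians, 0.63, 1.01 and 0.69 for the member lists, 0.56, 0.52 and 0.72 for the further lists and 0.15 for all genes, and the dotted line marks 1.

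Pol II signal was mostly higher in an outer part than in the middle, in members as in all genes. Each gene with at least 5 fragments was divided into 3 equal parts, without regard to strand, which the gene table lacks. In 33 of 37 members (89.2%) an outer part had more signal than the middle part in ISC/EBs, compared with 81.5% of all genes with at least 5 fragments. In ECs 31 of 37 members (83.8%) did, compared with 78.3%. Setting the higher of 2 outer parts against 1 middle part favors the outer parts even without a pattern, in members and all genes alike. The excess, the higher outer part minus the middle part, had a median of 0.80 in ISC/EBs and 0.41 in ECs for members. Over all genes it was 0.33 and 0.20. Members also had higher gene values, with medians of 1.07 in ISC/EBs and 0.19 in ECs, against 0.42 and 0.07. Whether the excess exceeds what these levels bring was not tested. In ISC/EBs the excess was largest in mitosis genes, where all 14 had a higher outer part (median excess 1.19). For example, polo had 2.27, 0.90 and 0.98 along its length in ISC/EBs and 0.19, 0.47 and 0.43 in ECs. Incenp had 2.20, 0.40 and 0.01 in ISC/EBs, against -0.41, -0.26 and -0.14 in ECs, so the populations differed most in its first part.

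Signal beside the gene was often higher than in it, in members as in all genes. Flanks can hold other genes, whose part in the flank values was not tested. In 34 of 37 members (91.9%) the higher of the 2 flanks of 2000 bp exceeded the gene itself in ISC/EBs. Among all genes with at least 5 fragments 76.6% did so. In ECs 33 of 37 members (89.2%) did, compared with 73.5% of those genes. Taking the higher of 2 flanks favors the flanks in this comparison. Orc2 had 3.43 in the right flank in ISC/EBs and 1.51 in ECs. The right flank of stg had 2.49 in ISC/EBs and -0.33 in ECs, so the gap between the populations was wider beside stg than in it. The left flank of Mcm2 had 1.83 and 1.02, against 0.52 and 0.02 in the gene. The reverse held for RnrS and aurB in ISC/EBs, whose highest flanks (1.73 and 2.04) were below the gene (2.44 and 2.43), and for CycD.

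**Figure D3:**
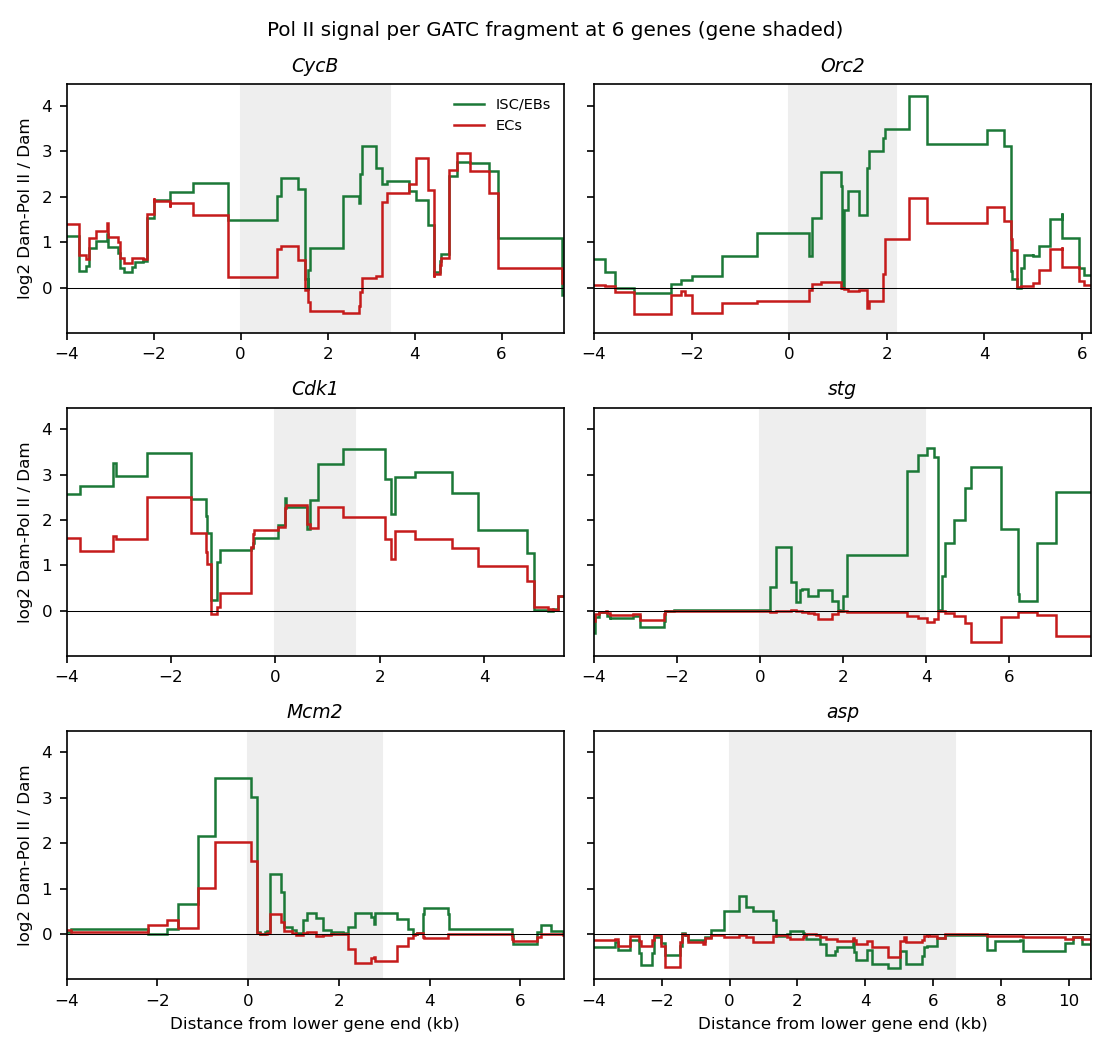
Log2 ratio of Dam-Pol II over Dam for each GATC fragment at 6 genes in ISC/EBs (green) and ECs (red), against the distance in kb from the end of the gene with the lower coordinate, with the gene shaded. Signal in ISC/EBs lies mostly above that in ECs over CycB, Orc2 and stg, is high in both over Cdk1 (gene means 2.71 and 2.14), is largely confined to the lower end and its flank at Mcm2, and stays below 1 over asp.

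**Figure D4:**
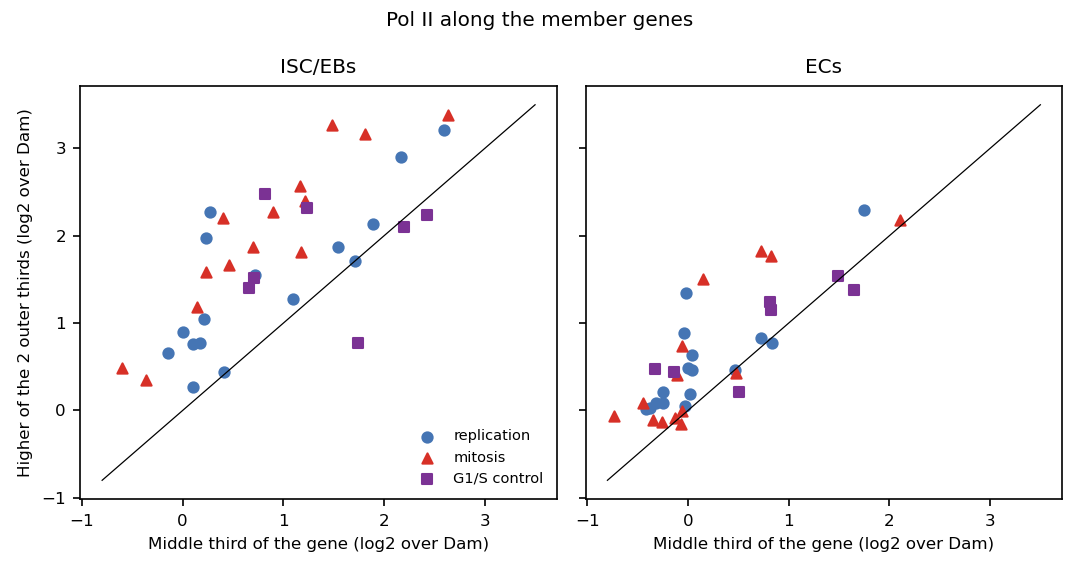
Mean log2 ratio in the middle part of each member gene (x axis) against the higher of its 2 outer parts (y axis), in ISC/EBs (left) and ECs (right), for 37 genes with at least 5 fragments. The line marks equal values, and 33 genes lie above it in ISC/EBs and 31 in ECs. Taking the higher of 2 parts favors points above the line.

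Sox21a peaks overlapped 11 of the 38 genes, Mcm2, dpa, Orc2, CycB, stg, Cdk1, polo, CycE, E2f1, Dp and Rbf. This is 28.9%, compared with 17.4% of all genes and 21.2% of genes with at least 5 fragments. By list these were 3 of 17 replication, 4 of 14 mitosis and 4 of 7 G1/S control genes, the last including E2f1 and CycE, which are the longest members and offer more room for a peak. The count was 4 when the midpoint of the peak had to lie in the gene (10.0% of all genes). Of the 12 peaks, 8 held an end of the gene and reached into its flank. The peak at Mcm2 also reached RpA-70, a single-strand binding protein gene called RPA1 in the gene table, which lies 519 bp away.

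The peak at Orc2 spans 13966086 to 13969629 on chromosome 3R, with a score of 2.45 and an FDR of 2.60e-11, both as deposited. In it the mean Pol II ratio was 3.03 in ISC/EBs and 1.08 in ECs. CycE had a peak of 2829 bp within the gene (score 2.42), with Pol II at 2.71 in ISC/EBs and 1.19 in ECs. E2f1 had 2 peaks within the gene, with scores of 2.59 and 1.73. The peak at polo had the lowest score of the 12 (1.46), with Pol II at 1.997 in ISC/EBs and 0.08 in ECs. At the peak that holds an end of stg, with 38.1% of its length in the gene, Pol II was 2.52 in ISC/EBs and -0.12 in ECs. Over the 12 peaks the median Pol II ratio was 2.61 in ISC/EBs and 1.30 in ECs, and over all 2769 peaks it was 2.48 and 1.27. Member peaks thus lay near the medians of all Sox21a peaks in Pol II.

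Mean Sox21a occupancy per gene followed Pol II in ISC/EBs. Across the 38 genes Pearson's r was 0.81 with Pol II in ISC/EBs and 0.72 with Pol II in ECs, and across all genes it was 0.82 and 0.59. These are descriptions over genes, which share fragments, cell population and the use of Dam controls. Cdk1 had the highest Sox21a mean (1.56), and Mcm3 the lowest (-0.30). A peak was not needed for a high mean. RnrS had a Sox21a mean of 1.17 with the nearest peak 21445 bp away, dap had 0.95 with the nearest at 100745 bp, and aurB had 0.93 with the nearest at 101837 bp. Conversely, Mcm2 had a peak at its end and a mean of 0.07. Genes with a peak had a median Pol II difference of 0.69 (ISC/EB minus EC), and genes without a peak 0.73. The share with a difference of at least 1 had the opposite order. It was 4 of 11 genes with a peak (36.4%) and 6 of 27 without (22.2%), compared with 9.89% of all genes.

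**Figure D5:**
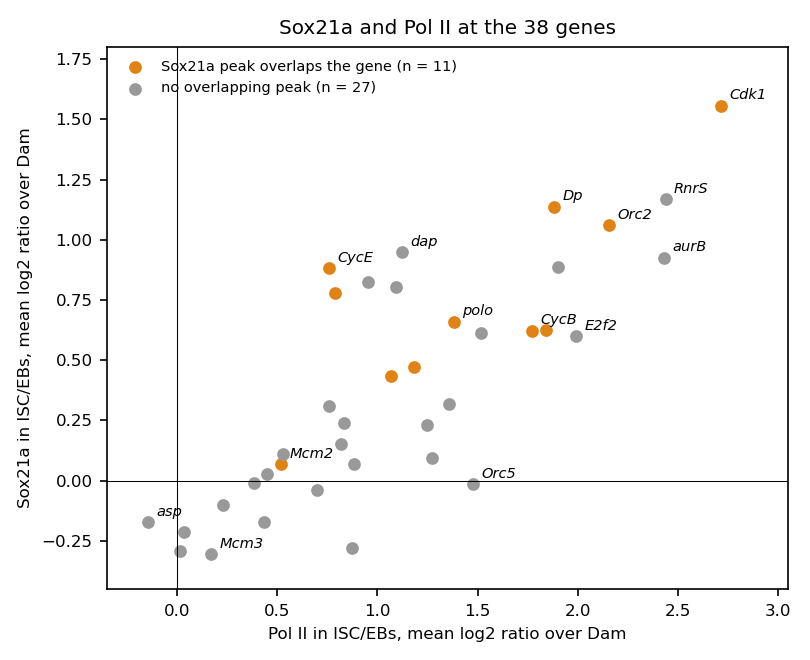
Mean log2 ratio of Dam-Sox21a over Dam against that of Dam-Pol II over Dam in ISC/EBs, per gene, for the 11 genes with an overlapping Sox21a peak (orange) and the 27 without (gray). Both values are high at Cdk1 (2.71 and 1.56 for Pol II and Sox21a) and low at asp and Mcm3, and RnrS and aurB lie among the high genes without a peak.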

How the data were processed

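Targeted DamID of adult midguts was used, with 14 samples in 6 groups. For each experiment the authors deposited a track of log2 ratios (Dam fusion over its Dam control) by GATC fragment, in which the samples were already averaged. Sox21a peaks were deposited by the authors with an FDR and a score, which lies on the same log2 scale. Aligner, library scaling, peak caller and build: not given in the sources used here. Depth was therefore not determined, no counting interval is given, and the spread between samples is unknown.

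Genes came from the NCBI RefSeq table of Release 6. The last fragment on 3R ended at 32078853 and the last gene at 32068441. This table has no strand or exons. All 38 members, 89 other pathway genes and 16 markers were matched. Each gene's value was a mean of its fragments' log2 ratios, weighted by their length inside the gene. No test was run on averaged tracks, and a log2 value or difference of at least 1 was used as a descriptive threshold. Gene means were tested on simulated data. Motifs and sequences were not analysed here. The members, gene lists and thresholds were chosen with earlier results of these data known. All members may be named, and of each other pathway list the 2 genes at either end. Alternatives changed the weights, fragments, gene interval, track scaling, threshold and peak overlap. Versions were matplotlib 3.10.9, pandas 2.3.3, numpy 2.4.6, scipy 1.17.1 and Python 3.11.15.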

Additional observations from a re-analysis of the deposited data

How the results depend on the processing

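Directions and counts were recomputed under alternatives. Another setting moved the number of members with a difference of at least 1 (10 of 38). It was 6 with unweighted means (8.4% of all genes) and 2 with quantile-normalized tracks (3.61% of all genes). With tracks scaled by SD it was 5 (5.08% of all genes). With the inner 60% of each gene, which was chosen after seeing the data, it was 5 (10.1% of all genes). That number was 28 of 38 at a threshold of 0.5 (29.2% of all genes) and 2 of 38 at 1.5 (3.18% of all genes). Genes occupied in ISC/EBs (19) numbered 11 with medians over fragments (23.1% of all genes). They numbered 30 at a threshold of 0.5 (43.5% of all genes) and 10 at 1.5 (18.3% of all genes). Genes occupied in ECs (7) numbered 4 with the inner 60% (18% of all genes). They numbered 11 at 0.5 (30.5% of all genes) and 2 at 1.5 (9.9% of all genes). The median difference of replication genes (0.63) was 0.30 with medians over fragments and 0.29 after quantile normalization. That of mitosis genes (1.01) was 0.37 and 0.57, and that of G1/S control genes (0.69) was 0.25 after quantile normalization and 0.45 with tracks scaled by SD. Sox21a peaks overlapped 4 genes when the midpoint had to lie in the gene. The other 82 recomputed values of these results stayed within 1.5 times the main value. They include centred tracks, fragments of at most 2000 bp and genes with at least 5 fragments, settings that altered member values little. Orc2 and CycB alone had a difference of at least 1 under all 11 other ways of computing gene values, and no gene with such a difference changed its direction under them. No paired analysis was possible because the tracks are averages over samples, and leaving out replicates was not run for the same reason. Depth is unknown, so its effect on precision was not determined.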

Other observations

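Several members lie beside genes with a stronger signal. ND-ASHI, 86 bp from Mcm6, had 2.74 in ISC/EBs and 2.07 in ECs, against 0.45 and 0.19 in Mcm6. Drat, 402 bp from Orc1, had 2.79 in ISC/EBs and 1.94 in ECs, against 0.43 and 0.16 in Orc1. At CG45544, 685 bp from stg, the values were 2.74 in ISC/EBs and -0.45 in ECs, a wider gap than at stg itself (1.07 and -0.04). These genes were named after their values were seen. Within 10000 bp, 25 of 38 members (65.8%) had a Sox21a peak, compared with 47.7% of all genes. Of the 25, 12 were replication, 9 mitosis and 4 G1/S control genes.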
